A study of Mus musculus with 12 samples.

Results

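The matrix metalloproteinases (Mmp), the tissue inhibitors of metalloproteinases (Timp) and the ADAMTS proteases with their ADAMTS-like relatives (Adamts and Adamtsl) were examined in the hearts of WT and *Fabp3*-null (F3-KO) mice. Members were taken by name alone, as every gene whose symbol begins with Mmp or Timp and a digit, or with Adamts. This gave 47 of the 19308 genes of the table: 19 Mmp, 4 Timp, 19 Adamts and 5 Adamtsl genes. Of these, 39 held enough counts to be tested, 6 (*Adamts16*, *Adamts20*, *Mmp13*, *Mmp24*, *Mmp25* and *Mmp27*) lay under the filter on low counts, and 2 (*Adamts18* and *Mmp21*) were not detected, with at most 3 counts in each heart.

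The 12 hearts came from 4 groups of 3: WT sham, F3-KO sham, WT TAC and F3-KO TAC. All animals were of the C57BL/6 strain, were operated at 8 weeks of age and gave their hearts 1 week later. In transverse aortic constriction (TAC) a ligature narrows the aortic arch and loads the left ventricle with pressure, and the sham-operated mice serve as controls. The F3-KO mice carry a global CRISPR-Cas9 deletion of *Fabp3*, the heart's fatty acid binding protein, a change that is not confined to cardiomyocytes. The study's methods and labels name no pooling of animals, so each library was taken as 1 heart.

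Metalloproteinases are zinc enzymes that are made as inactive precursors, and most of them cut collagens, proteoglycans and other proteins of the extracellular matrix once a propeptide is removed. TIMPs bind the active site of these enzymes and block it, and TIMP3 also blocks several ADAM and ADAMTS proteases. ADAMTS proteases cut proteoglycans or trim the ends of procollagens, whereas ADAMTS-like proteins share their ancillary domains, lack the protease domain and bind microfibrils. In a pressure-loaded heart most of these genes are known from fibroblasts, endothelial cells and invading leukocytes.

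The AP-1 element TGANTCA is the best known regulatory feature of several metalloproteinase promoters, a palindrome that reads alike on both strands. Reference windows from 250 bases before to 50 bases after the start of transcription (RefSeq, GRCm38.p6) were at hand for 32 of the 47 members. The element was found in 4 of them, *Mmp3*, *Mmp7*, *Mmp12* and *Mmp13*, which is 12.5% against 7.22% of the 14342 genes of the table with a window. These 4 genes lie in a cluster on chromosome 9, all on the plus strand. The 80 bases that end just before the start of each are shown because they carry the only matches among the 32 members with a window. The other members, among them *Mmp2* and *Mmp9*, had no window and were not searched. Capitals mark the element.
*Mmp3* (stromelysin-1), chr9:7445742-7445821: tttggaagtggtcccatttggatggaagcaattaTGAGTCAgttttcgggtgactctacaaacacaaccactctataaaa
Mmp7 (matrilysin), chr9:7692010-7692089: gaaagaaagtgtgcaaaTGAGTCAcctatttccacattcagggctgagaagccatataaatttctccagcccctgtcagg
*Mmp12* (macrophage elastase), chr9:7347294-7347373: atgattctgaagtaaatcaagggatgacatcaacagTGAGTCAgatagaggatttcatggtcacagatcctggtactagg
Mmp13 (collagenase-3), chr9:7272434-7272513: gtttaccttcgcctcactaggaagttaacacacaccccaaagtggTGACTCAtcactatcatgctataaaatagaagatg
The element began 46 bases before the start in *Mmp3*, 63 in *Mmp7*, 44 in *Mmp12* and 35 in *Mmp13*. For *Mmp7* and *Mmp12*, which each have 2 annotated starts, it stood at 1 start only. A match is a run of letters and no measure of binding.

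The 250 bases before the start of *Timp1* and of *Mmp14* are given because these were among the members with the largest differences between TAC and sham hearts. Neither holds the element, so no letters are in capitals.
Timp1, chrX:20869916-20870165, plus strand: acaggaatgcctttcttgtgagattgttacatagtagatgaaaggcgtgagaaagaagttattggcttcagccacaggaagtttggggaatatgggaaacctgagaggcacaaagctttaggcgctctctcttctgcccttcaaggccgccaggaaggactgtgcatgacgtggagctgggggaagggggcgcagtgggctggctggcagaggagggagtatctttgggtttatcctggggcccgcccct
Mmp14, chr14:54431348-54431597, plus strand: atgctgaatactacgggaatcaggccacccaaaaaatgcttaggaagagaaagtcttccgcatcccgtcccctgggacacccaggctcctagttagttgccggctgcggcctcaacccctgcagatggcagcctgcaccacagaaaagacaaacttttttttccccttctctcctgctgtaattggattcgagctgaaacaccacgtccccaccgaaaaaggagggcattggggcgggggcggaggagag

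Libraries held 10424334 to 14372011 estimated counts, and 3 counts, below which no fold is given, were worth 0.191 to 0.3 CPM (normalised read counts relative to library size) after scaling. These floors cover counting error only. *Fabp3* was at 2120 to 3060 CPM in the 6 WT hearts and at 1000 to 1140 CPM in the 6 F3-KO hearts, with no overlap. Transcript of the gene thus remained in the F3-KO hearts, and which part of it was deleted was not examined here. For the protein, the study reports a complete loss of FABP3 from F3-KO hearts by western blot. Hearts of one group were far from alike. The 5 activated fibroblast markers (*Postn*, *Cthrc1*, *Fap*, *Cilp* and *Meox1*) summed to 418 CPM in WT TAC 1, 785 in F3-KO TAC 1 and 1870 in F3-KO TAC 2, but to 81.7 in F3-KO TAC 3, 73.5 in WT TAC 2 and 52.6 in WT TAC 3, against 32.2 to 41.2 in WT sham and 56.7 to 99.4 in F3-KO sham hearts. Of the 6 hypertrophy markers, *Acta1* was at 3040 to 3570 CPM in WT TAC 1 and the 3 F3-KO TAC hearts, at 762 and 800 CPM in WT TAC 2 and 3, and at 44.9 to 753 CPM in the sham hearts. *Myh7*, which makes up most of their sum in several hearts, ran from 174 CPM in F3-KO TAC 1 to 23100 CPM in F3-KO TAC 3. *Nppb* was at 95 to 311 CPM in the sham and 411 to 776 CPM in the TAC hearts, without overlap. *Acta1* did not overlap either, though its nearest hearts were close, at 753 CPM (F3-KO sham 2) and 762 CPM (WT TAC 2). The other markers overlapped. Averaged over genotypes, all 6 were higher after TAC at an unadjusted edgeR p of at most 0.05 (11.3% of genes). At an adjusted p under 0.05 edgeR called 2 of them (0.078% of genes). WT sham 2 stood apart from the other sham hearts, with 47.2 CPM over 8 neutrophil markers against 5.56 to 24.3 CPM, and with 9180 CPM of *Myh7* against 290 to 4020 CPM, but its *Nppa* (37.1 CPM), *Nppb* (95 CPM) and *Acta1* (44.9 CPM) were the lowest of the 12 hearts. The cardiomyocyte markers, at 52300 to 91000 CPM in sum, marked every library as heart. In bulk RNA, fewer cells of a type and less RNA per cell cannot be told apart.

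Per kilobase of the longest coding transcript, *Timp3* and *Timp2* were near the top of the family and the metalloproteinases best known from leukocytes were low. Averaged over the 6 sham hearts, *Timp3*, the matrix-bound inhibitor, stood first at 98.1 CPM per kb (range 70.7 to 132). The range of *Adamtsl5*, next at 59.8 CPM per kb, was 47.4 to 82.8 and overlapped it. *Timp2*, the partner of MMP2 activation, followed at 42.9 CPM per kb (32.9 to 49.6). *Mmp7* came next at 33.1 and *Mmp15*, a membrane-anchored metalloproteinase, at 29.8 CPM per kb, and their ranges overlapped each other and that of *Timp2*. *Mmp2* (gelatinase A), *Timp4* and *Adamts1* came to 19.7, 13.3 and 11.4 CPM per kb. At the low end, *Mmp9* (gelatinase B) had 0.504 and *Mmp8*, the neutrophil collagenase, had 0.466 CPM per kb. *Timp1* was only in place 20 of this order in sham hearts, with 2.85 CPM per kb, and averaged 15.3 CPM per kb over the 6 TAC hearts.

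Counting was not stated to use strand, so reads of genes that overlap on the opposite strand cannot be told apart. In the mouse annotation used for lengths (GENCODE M21), *Syn3* covers 21.3% of the exonic bases of *Timp3*, *Tmem198b* 22.3% of *Mmp19*, *AV064505* 11.5% of *Mmp7*, *1700020L24Rik* 12% of *Mmp28*, *BC029722* 13.6% of *Mmp24* and *Gm29724* 10.6% of *Adamts8*. *Adamts9* shares 9.18% with *A730049H05Rik* and 2.82% with *Gm15737*. The levels of these members are uncertain to that extent.

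**Figure D1:**
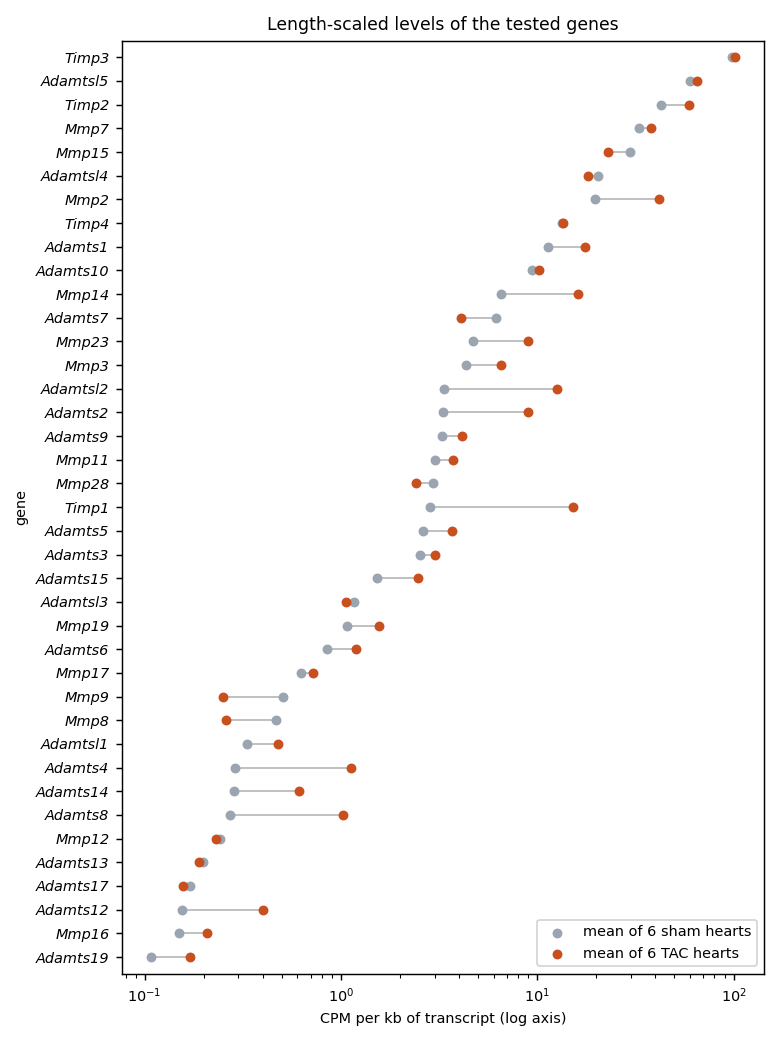
Mean level of each of the 39 tested members in CPM per kb of transcript, on a log axis, over the 6 sham hearts (grey) and the 6 TAC hearts (orange). Timp3 leads in both, and Timp1 moves from 2.85 to 15.3 CPM per kb.

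TAC hearts held more transcript of most members than sham hearts, but no single member passed the test. Averaged over both genotypes, 28 of the 39 tested members had a log2 fold change above 0, with a median of 0.47 where the median of all 14094 tested genes was 0. At an adjusted p under 0.05 (quasi-likelihood test of edgeR, Benjamini-Hochberg over all tested genes), 0 of 39 members were called, and so were 11 genes in all, or 0.078%. At an unadjusted p of at most 0.05, 15 members were higher and 2 lower, against 11.3% and 6.52% of all genes. DESeq2 called 10 members at an adjusted p under 0.05 (4.21% of genes): *Timp1*, *Timp2*, *Mmp2*, *Mmp14*, *Mmp23*, *Adamts1*, *Adamts2*, *Adamts8* and *Adamtsl2* as higher and *Adamts7* as lower. Without the F3-KO TAC 3 heart, edgeR called 9 members (5.92% of genes), namely *Timp1*, *Mmp2*, *Mmp14*, *Mmp23*, *Adamts1*, *Adamts2*, *Adamts8*, *Adamts14* and *Adamtsl2*. It called 1 without F3-KO TAC 2 (*Adamts1*, among 38 genes called) and 0 without any other single heart.

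Within WT hearts the member median was 0.26, with 26 of 39 above 0, and edgeR called 0 members (0% of genes). At an unadjusted p of at most 0.05, 9 members were higher and 2 lower, against 3.68% and 2.6% of genes, and 5 passed in either direction without WT TAC 1 and 5 without WT sham 3. DESeq2 called *Adamts1* (0.164% of genes). Within F3-KO hearts the member median was 0.45, with 30 of 39 above 0, and edgeR again called 0 members (0% of genes). There 12 members were higher and 1 lower at an unadjusted p of at most 0.05, against 10.6% and 6.47% of genes. DESeq2 called 5 members (3.11% of genes), *Timp1*, *Mmp2*, *Mmp14*, *Adamts2* and *Adamts8*. Without F3-KO TAC 3 edgeR called 6 (5.43% of genes), those 5 and *Mmp23*, and without any other single F3-KO heart it called 0.

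The 3 TAC hearts lay wholly above the 3 sham hearts for 7 members in WT (4.67% of genes): *Timp1*, *Mmp14*, *Mmp23*, *Adamts1*, *Adamts8*, *Adamts14* and *Adamtsl2*. They lay wholly below for 2, *Mmp9* and *Mmp12* (4.43% of genes). *Mmp12* held only 6, 6 and 9 counts in the WT sham and 3, 6 and 4 in the WT TAC hearts. Its nearest hearts, WT sham 2 and WT TAC 2, both held 6 counts and were parted by scaling alone (0.55 against 0.528 CPM). In F3-KO the TAC hearts lay above for 13 members (11.5% of genes), *Timp1*, *Timp2*, *Mmp2*, *Mmp11*, *Mmp14*, *Mmp16*, *Mmp19*, *Mmp23*, *Adamts2*, *Adamts5*, *Adamts6*, *Adamts8* and *Adamtsl1*, and below for *Adamts7* alone (11.4% of genes). Over both genotypes, *Adamts8* was the 1 member whose 6 TAC hearts all exceeded the 6 sham hearts (0.553% of genes), and 0 members lay wholly below (0.284% of genes).

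The higher levels were uneven between hearts. The median member stood 0.77 above the WT sham mean on the log2 scale in WT TAC 1, and 0.64, 0.63 and 0.53 above it in F3-KO TAC 1, 2 and 3, but 0.03 and 0.11 in WT TAC 2 and 3, while the median of all genes was 0 or 0.01 in every heart. The sham hearts had -0.08 to 0.22, and 3 of them (F3-KO sham 1 at 0.22, F3-KO sham 2 and WT sham 2 at 0.15) were above WT TAC 2 and 3. F3-KO TAC 2 held the highest value of the 12 hearts for 12 of the 39 members (30.8%), where it did so for 12.3% of all tested genes. WT TAC 1 held it for 7 (17.9% against 10.7% of genes), and WT TAC 2 and WT TAC 3 for 0. The activated fibroblast sums given above were highest in WT TAC 1, F3-KO TAC 1 and F3-KO TAC 2. The 6 fibroblast markers (*Pdgfra*, *Tcf21*, *Dpt*, *Gsn*, *Lamc3* and *Pcolce2*) had their lowest sums in the same hearts. These were 956, 907 and 897 CPM, mostly from *Gsn*, against 977 to 1730 CPM in the other hearts. Over both genotypes 5 of these 6 markers were above 0 in log2 fold change of TAC against sham, with a median of 0.34. The part of either list in the result was not tested. The cardiomyocyte markers summed to 52300 to 65100 CPM in F3-KO TAC against 77100 to 86000 CPM in F3-KO sham hearts, with 0 of 7 above 0 in log2 fold change (median -0.48) and 2 called by DESeq2. The 3 red blood cell markers summed to 256 to 673 against 754 to 3100 CPM in the same groups. In WT hearts both sums overlapped between TAC and sham, and their part was not tested either.

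**Figure D2:**
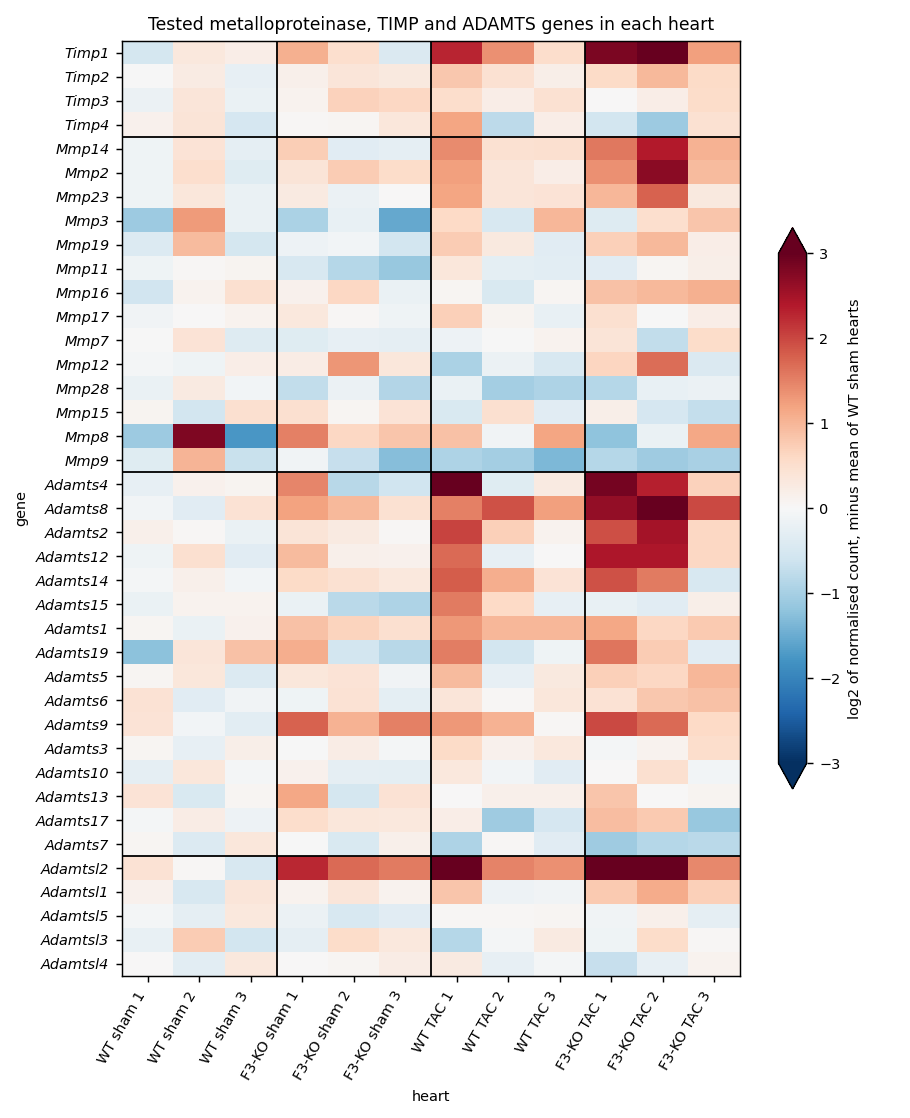
Level of the 39 tested members in each of the 12 hearts, as log2 CPM (prior count 2) minus the mean of the WT sham hearts; red is higher, blue lower, colours end at 3 on either side, and black lines part the groups and gene families. Timp1, Mmp14, Mmp2, Adamts2, Adamts4, Adamts12 and Adamtsl2 are reddest in WT TAC 1, F3-KO TAC 1 and F3-KO TAC 2.

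Among the inhibitors, *Timp1*, which is induced by growth factors and cytokines, differed most between TAC and sham hearts. Its level was 1.36, 2.57 and 2.37 CPM in the WT sham hearts and 4.41, 2.94 and 1.47 CPM in the F3-KO sham hearts. After TAC it was 10.5, 5.55 and 3 CPM in WT and 15.5, 41.7 and 4.95 CPM in F3-KO hearts. In each genotype all TAC hearts lay above all sham hearts of that genotype, although WT TAC 3 was below F3-KO sham 1. The log2 fold change of TAC against sham was 1.60 (SE 0.72, n = 3 against 3, edgeR adjusted p = 0.782) in WT and 2.81 (SE 0.69, adjusted p = 0.175) in F3-KO hearts, which corresponds to 3.03-fold and 7.02-fold. DESeq2 gave an adjusted p of 0.636 in WT and of 0.00655 in F3-KO hearts. Without F3-KO TAC 2 the F3-KO value was 1.78.

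*Timp2*, the abundant inhibitor that also helps MMP14 to activate MMP2, had a smaller and more even difference. WT sham hearts had 143, 171 and 122 CPM and WT TAC hearts 254, 197 and 162 CPM, ranges that overlapped. F3-KO sham hearts had 160, 184 and 176 CPM and F3-KO TAC hearts 213, 284 and 214 CPM, which did not overlap. Averaged over genotypes, *Timp2* had a log2 fold change of 0.47 (SE 0.13, adjusted p = 0.125 by edgeR and 0.025 by DESeq2).

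*Timp3* and *Timp4* did not follow *Timp1*. *Timp3* was at 337, 494 and 334 CPM in WT sham, 409, 622 and 581 in F3-KO sham, 547, 437 and 520 in WT TAC hearts and 385, 442 and 557 in F3-KO TAC hearts, with a log2 fold change averaged over genotypes of 0.07 (SE 0.15, adjusted p = 0.832, edgeR). *Timp4*, the inhibitor best known from heart muscle, ranged from 48.1 to 88.8 CPM in WT sham and from 69.4 to 86.9 CPM in F3-KO sham hearts. After TAC its range widened, from 39.2 to 156 CPM in WT and from 31.6 to 93.8 CPM in F3-KO hearts. Its averaged log2 fold change was -0.01 (SE 0.32, adjusted p = 0.994, edgeR), and its sign depended on the heart left out. F3-KO TAC 2, the heart with the most *Timp1*, had the least *Timp4*, and WT TAC 1 had the most *Timp4*.

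The membrane enzyme MMP14 cuts pro-MMP2 with the help of TIMP2, and both proteases had more transcript after TAC in F3-KO hearts. *Mmp14* was at 18.1, 26.9 and 16.4 CPM in WT sham and 53.6, 27.4 and 27.7 CPM in WT TAC hearts. In F3-KO it was at 33.3, 15.7 and 16.6 CPM after sham and 60.6, 104 and 41.7 CPM after TAC. The TAC hearts lay above the sham hearts in both genotypes, though in WT by only 0.53 CPM between WT sham 2 and WT TAC 2. Fitted log2 fold changes were 0.83 (SE 0.40, edgeR adjusted p = 0.782) in WT and 1.65 (SE 0.40) in F3-KO hearts, with an adjusted p of 0.175 by edgeR and 0.00821 by DESeq2 in the latter.

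*Mmp2*, which cuts denatured collagen and basement membrane, was at 43.7, 68.7 and 37.4 CPM in WT sham and 114, 61.8 and 55 CPM in WT TAC hearts, which overlapped. In F3-KO it was at 62.7, 81.1 and 70 CPM after sham and 126, 317 and 93.8 CPM after TAC, which did not. The F3-KO log2 fold change was 1.33 (SE 0.42, adjusted p = 0.184 by edgeR and 0.0455 by DESeq2), and 0.61 without F3-KO TAC 2.

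Within a heart, the ratio of 2 genes is free of library scaling. The 2 ratios given here were picked after the values of their genes were seen. Their p-values, adjusted over these 2 only, do not cover that choice. The *Mmp14* to *Timp2* count ratio was 0.126, 0.157 and 0.135 in WT sham, 0.209, 0.0849 and 0.0942 in F3-KO sham, 0.211, 0.139 and 0.171 in WT TAC hearts, and 0.284, 0.366 and 0.195 in F3-KO TAC hearts. On average it was 1.68-fold higher after TAC (exact two-sided permutation within genotype, p = 0.025, adjusted p = 0.05 over 2 ratios, smallest possible p = 0.005). This p was 0.05 to 0.09 without any one of F3-KO sham 2, WT TAC 1, F3-KO TAC 1 and F3-KO TAC 2. The *Mmp2* to *Timp2* ratio was 0.305 to 0.403 in WT sham, 0.393 to 0.44 in F3-KO sham, 0.315 to 0.451 in WT TAC hearts and 0.438 to 1.11 in F3-KO TAC hearts, 1.32-fold higher after TAC (same exact permutation test, p = 0.09, adjusted p = 0.09).

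Of the other metalloproteinases, *Mmp23*, a small membrane-associated member, was at 6.02, 8.34 and 5.65 CPM in WT sham and 15.1, 8.45 and 8.8 CPM in WT TAC hearts. In F3-KO it was at 7.98, 5.8 and 6.69 CPM after sham and 13.4, 23 and 8.08 CPM after TAC. Groups did not overlap in either genotype, by margins of 0.11 CPM in WT and 0.099 CPM in F3-KO hearts. The averaged log2 fold change was 0.91 (SE 0.25, adjusted p = 0.115 by edgeR and 0.0297 by DESeq2). *Mmp19* had 2.47 to 3.46 CPM in F3-KO sham and 4.29 to 7.46 CPM in F3-KO TAC hearts. In WT its ranges overlapped, since WT sham 2 alone held 7.24 CPM. *Mmp16*, a membrane-type enzyme, was low everywhere, at 1.37 to 1.57 CPM in F3-KO TAC and 0.389 to 1.12 CPM in all other hearts.

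*Mmp11* (stromelysin-3), which is activated inside the cell by furin, had lower values in F3-KO than in WT sham hearts, without overlap. It was at 8.06, 8.98 and 9.41 CPM in WT sham and at 6.24, 4.76 and 3.94 CPM in F3-KO sham hearts, whereas WT TAC hearts had 11.3, 7.13 and 7 CPM and F3-KO TAC hearts 6.91, 9.12 and 9.9 CPM. In F3-KO hearts the TAC values were above the sham values, and in WT hearts they overlapped. For F3-KO against WT after sham it was -0.82 on the log2 scale (SE 0.24, adjusted p = 0.465, edgeR).

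The metalloproteinases known from leukocytes were lower or overlapped after TAC. *Mmp9*, carried by neutrophils and macrophages, had 1.36, 3.85 and 1.06 CPM in WT sham and 0.863, 0.793 and 0.6 CPM in WT TAC hearts, a log2 fold change of -1.45 (SE 0.54, adjusted p = 0.782, edgeR) that was -0.67 without WT sham 2. F3-KO hearts had 0.641 to 1.66 CPM after sham and 0.766 to 0.911 CPM after TAC. WT sham 2 also held the highest *Mmp8* (3.76 CPM against 0 to 1.41 CPM elsewhere) and *Mmp3* (21 CPM against 2.84 to 17.2 CPM), and it was the heart with the most neutrophil marker transcript, whose part was not tested. *Mmp12*, known from macrophages, was at 0.55 to 0.736 CPM in WT sham and 0.235 to 0.528 CPM in WT TAC hearts, and at 0.748 to 1.82 and 0.412 to 2.36 CPM in the F3-KO groups. The 7 macrophage markers, in contrast, summed to 247 to 543 CPM in WT sham, 352 to 422 CPM in F3-KO sham, 433 to 714 CPM in WT TAC hearts and 540 to 848 CPM in F3-KO TAC hearts.

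Of the 4 members found to hold the promoter element, *Mmp7* was at 29.4 to 50.6 CPM in the sham and 22.6 to 56.3 CPM in the TAC hearts. The values of *Mmp3* and *Mmp12* are above, and *Mmp13* lay under the filter with at most 1.59 CPM.

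**Figure D3:**
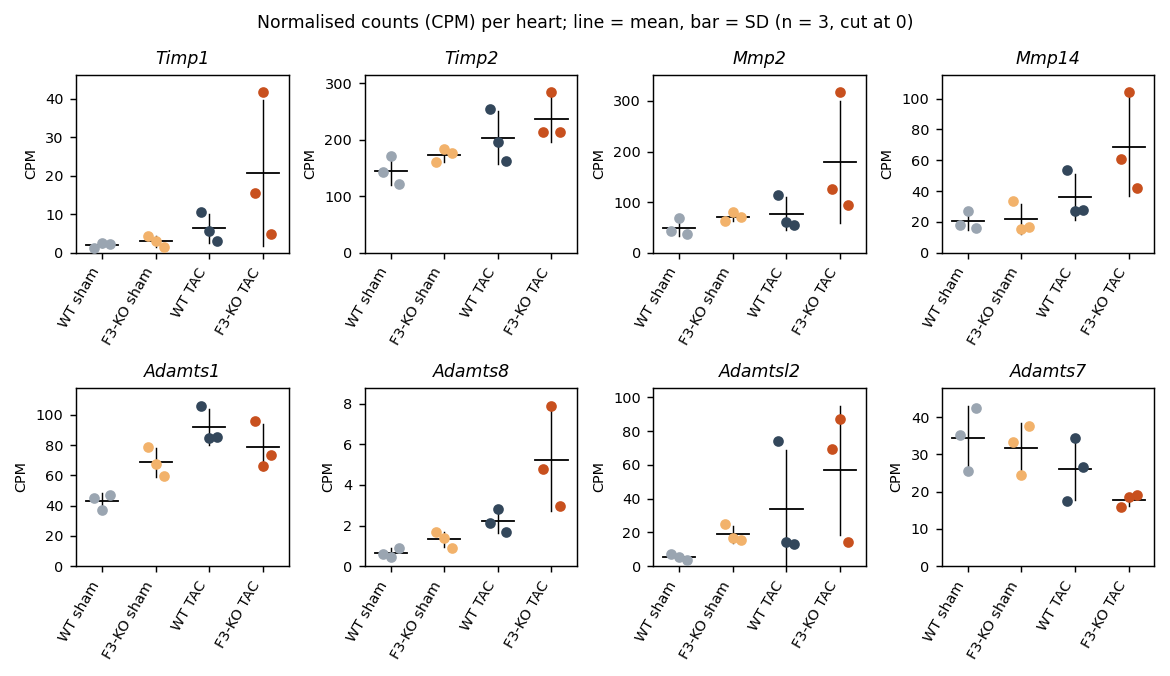
CPM in each heart for 8 members, 1 panel each with its own axis from 0; points are hearts, horizontal lines are means and vertical bars are SDs (n = 3, cut at 0). F3-KO TAC 2 is the highest heart for Timp1, Timp2, Mmp2, Mmp14, Adamts8 and Adamtsl2, and Adamts7 is lowest in the F3-KO TAC group.

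Of the ADAMTS proteases, *Adamts1* and *Adamts8* had the smallest p-values of the family. *Adamts1*, an early-response proteoglycanase, was at 45, 36.9 and 47 CPM in WT sham and 106, 84.9 and 85.2 CPM in WT TAC hearts, far apart and with little spread. F3-KO sham hearts already had 78.7, 67.5 and 59.7 CPM, and F3-KO TAC hearts had 96.1, 66.2 and 73.7 CPM, which overlapped them. The log2 fold change of TAC against sham was 1.10 (SE 0.17, adjusted p = 0.179 by edgeR and 1.51e-05 by DESeq2) in WT and 0.20 (SE 0.17, adjusted p = 0.582, edgeR) in F3-KO hearts. The difference between the genotypes in this effect was -0.90 (SE 0.24, adjusted p = 0.954, edgeR). With any one heart left out, the WT value of *Adamts1* was 0.98 to 1.17.

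*Adamts8*, a proteoglycanase with anti-angiogenic activity, was low in all groups. WT sham hearts had 0.583, 0.458 and 0.9 CPM, F3-KO sham hearts 1.66, 1.38 and 0.916 CPM, WT TAC hearts 2.12, 2.82 and 1.7 CPM and F3-KO TAC hearts 4.78, 7.91 and 2.97 CPM. Every TAC heart lay above every sham heart, if by 0.037 CPM between F3-KO sham 1 and WT TAC 3. F3-KO hearts lay above WT hearts of the same surgery, after sham only by 0.916 against 0.9 CPM in the nearest hearts, and the genotype comparison had an edgeR adjusted p of 0.839 after sham and 0.459 after TAC. Averaged over genotypes the log2 fold change was 1.86 (SE 0.31, adjusted p = 0.0614 by edgeR and 0.000197 by DESeq2), or 3.63-fold.

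The versican-cleaving aggrecanases were split. *Adamts4* was at 0.519 to 3.24 CPM in the sham hearts, and at 10.9 CPM in WT TAC 1, 8.8 in F3-KO TAC 1 and 6.06 in F3-KO TAC 2 against 0.793 to 1.81 CPM in the other 3 TAC hearts. *Adamts5*, its more abundant relative, had 23.8 to 34.4 CPM in F3-KO sham and 39.4 to 51.8 CPM in F3-KO TAC hearts, and overlapped in WT (19.6 to 32.6 and 21.8 to 49.7 CPM). *Adamts9* had 18.4, 12.9 and 11 CPM in WT sham and 47.3, 28.5 and 39.8 CPM in F3-KO sham hearts, which did not overlap. *Adamts15* was highest in WT TAC 1 at 32.3 CPM and at 5.68 to 16.6 CPM in the other 11 hearts.

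The procollagen N-proteinases, which remove the amino-terminal propeptide of fibrillar collagens, are *Adamts2*, *Adamts3* and *Adamts14*. *Adamts2* had 24.5, 22.6 and 19.1 CPM in WT sham, 28.9, 26.6 and 22.5 CPM in F3-KO sham, 89.4, 36.3 and 23.6 CPM in WT TAC hearts and 84.2, 125 and 33.7 CPM in F3-KO TAC hearts. Its F3-KO log2 fold change was 1.64 (SE 0.48, adjusted p = 0.178 by edgeR and 0.028 by DESeq2). *Adamts14*, a low-abundance relative, was at 1.15 to 1.37 CPM in WT sham and 1.7 to 4.71 CPM in WT TAC hearts without overlap, and at 1.56 to 1.91 and 0.825 to 5.08 CPM in the F3-KO groups, where F3-KO TAC 3 held the lowest value of all hearts. *Adamts3*, which acts on collagens of cartilage and on a lymphatic growth factor, stayed within 8.16 to 14.5 CPM in all hearts.

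*Adamts7*, which cuts cartilage oligomeric matrix protein, had a lower mean in TAC than in sham hearts. It was at 35.3, 25.5 and 42.6 CPM in WT sham and 17.6, 34.4 and 26.6 CPM in WT TAC hearts, which overlapped, and at 33.3, 24.6 and 37.6 CPM in F3-KO sham and 15.9, 18.6 and 19 CPM in F3-KO TAC hearts, which did not. The averaged log2 fold change was -0.61 (SE 0.18, adjusted p = 0.128 by edgeR and 0.0385 by DESeq2). *Adamts6* had 7.29 to 10.1 CPM in F3-KO TAC hearts against 4.31 to 7.27 CPM in F3-KO sham hearts, a gap of 0.02 CPM that closed under DESeq2 size factors, and *Adamts12* had 1.73 to 6.53 against 1.19 to 2.25 CPM, which overlapped. The remaining tested ADAMTS proteases, *Adamts3*, *Adamts10*, *Adamts13*, *Adamts17* and *Adamts19*, overlapped between TAC and sham hearts in both genotypes.

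**Figure D4:**
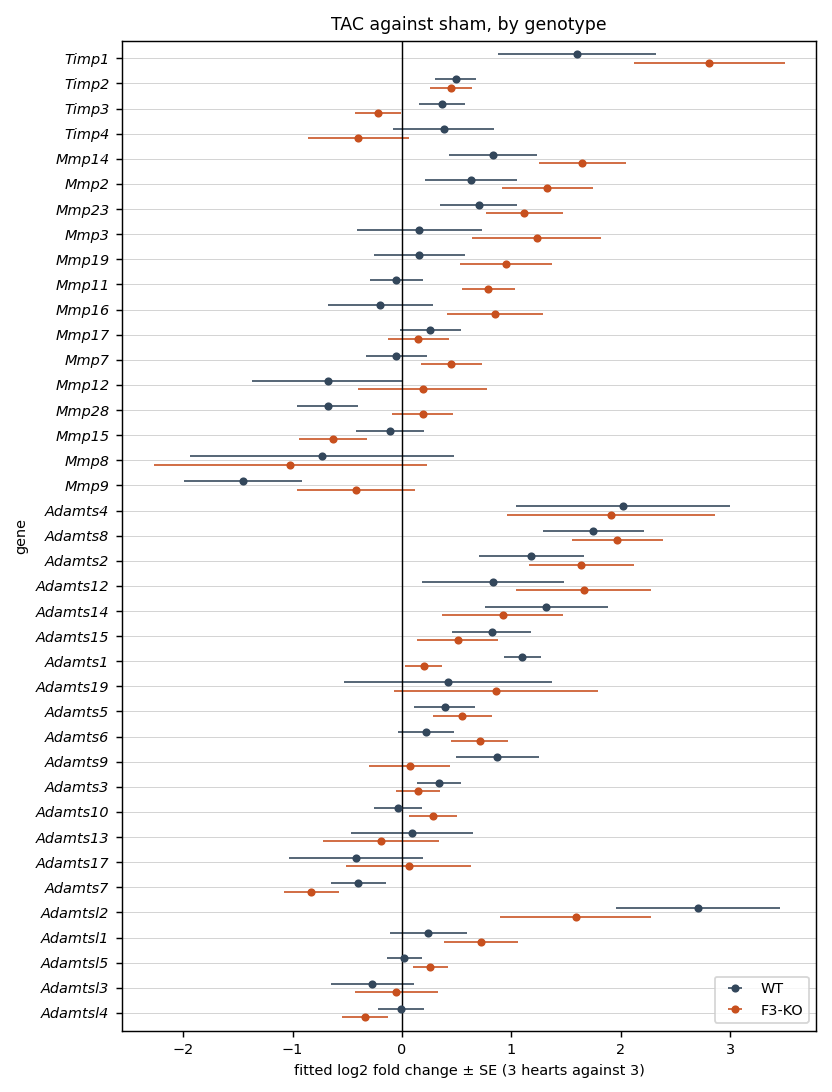
Fitted log2 fold change of TAC against sham with its SE for the 39 tested members, in WT (dark) and F3-KO hearts (orange), 3 hearts against 3. Adamtsl2 (2.71) and Adamts4 (2.02) lie farthest to the right in WT and Timp1 (2.81), Adamts8 (1.97) and Adamts4 (1.91) in F3-KO hearts, Adamts1 is apart between the genotypes (1.10 and 0.20), and 0 values passed the adjusted test.

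*Adamtsl2*, the ADAMTS-like protein that binds fibrillin and a latent form of TGF-beta, was the ADAMTS-like gene with the largest difference. It was at 6.9, 5.22 and 3.6 CPM in WT sham, 24.7, 16.8 and 15.4 CPM in F3-KO sham, 74.2, 14.5 and 13.3 CPM in WT TAC hearts and 69.2, 87.4 and 14.1 CPM in F3-KO TAC hearts. All 9 hearts of the other groups thus lay above the WT sham hearts, and F3-KO TAC 3 was below all 3 F3-KO sham hearts. The WT log2 fold change was 2.71 (SE 0.75, adjusted p = 0.782, edgeR) and 1.42 without WT TAC 1. *Adamtsl1* had 2.57 to 3.11 CPM in F3-KO sham and 4.04 to 5.36 CPM in F3-KO TAC hearts. *Adamtsl3*, *Adamtsl4* and *Adamtsl5* overlapped between TAC and sham hearts in both genotypes.

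After TAC, F3-KO hearts had more transcript of 27 of the 39 members than WT hearts, with a median log2 fold change of 0.29 where all genes had 0.02. By edgeR 0 members were called (0.078% of genes), and by DESeq2 0 members as well (0.636% of genes). At an unadjusted p of at most 0.05, *Timp1*, *Mmp2*, *Mmp12*, *Mmp14*, *Mmp16* and *Adamts8* were higher (6 members, 5.84% of genes) and *Adamts7* and *Adamts15* lower (2 members, 4.16% of genes). This count of 8 was 2 without F3-KO TAC 2 and 14 without F3-KO TAC 3. The F3-KO TAC hearts lay wholly above the WT TAC hearts for *Adamts6*, *Adamts8* and *Mmp16* (6.3% of genes) and wholly below for 0 members (5.1% of genes). For *Timp1* the log2 fold change was 1.70 (SE 0.65, adjusted p = 0.473, edgeR), and 0.66 without F3-KO TAC 2. That of *Mmp2* was 1.21 (SE 0.42, adjusted p = 0.463, edgeR), and 0.50 without the same heart. *Mmp9* did not differ beyond its spread, at 0.14 (SE 0.56, adjusted p = 0.949, edgeR).

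After sham surgery 27 of 39 members were higher in F3-KO hearts, with a median log2 fold change of 0.12 where all genes had 0. Calls at an adjusted p under 0.05 were 0 by edgeR (0.106% of genes) and 2 by DESeq2 (0.66% of genes), *Adamts1* and *Adamts9*. At an unadjusted p of at most 0.05, *Timp3*, *Adamts1*, *Adamts9* and *Adamtsl2* were higher (2.81% of genes) and *Mmp11* was lower (3.21% of genes). The F3-KO sham hearts lay wholly above the WT sham hearts for 7 members (6.78% of genes), *Mmp12*, *Adamts1*, *Adamts8*, *Adamts9*, *Adamts14*, *Adamts17* and *Adamtsl2*, and wholly below for *Mmp11* and *Adamts15* (6.92% of genes). For *Mmp12* the nearest hearts, WT sham 3 and F3-KO sham 1, both held 9 counts and were parted by scaling alone. The log2 fold change of *Adamts9* was 1.45 (SE 0.38, adjusted p = 0.317 by edgeR and 0.0316 by DESeq2) and that of *Adamts1* was 0.67 (SE 0.17, adjusted p = 0.288 by edgeR and 0.039 by DESeq2). The activated fibroblast sums were also higher in F3-KO sham hearts, 56.7 to 99.4 CPM against 32.2 to 41.2 CPM. Sums of the 6 fibroblast markers overlapped, at 1210 to 1530 CPM against 977 to 1730 CPM. The part of either list was not tested.

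The TAC effect itself was not shown to differ between the genotypes for any member. The test of that difference called 0 members by edgeR (0% of genes) and 0 by DESeq2 (0.0313% of genes). At an unadjusted p of at most 0.05, *Mmp11* was higher (2.31% of genes) and *Adamts1* lower (2.18% of genes) in the TAC effect of F3-KO hearts.

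**Figure D5:**
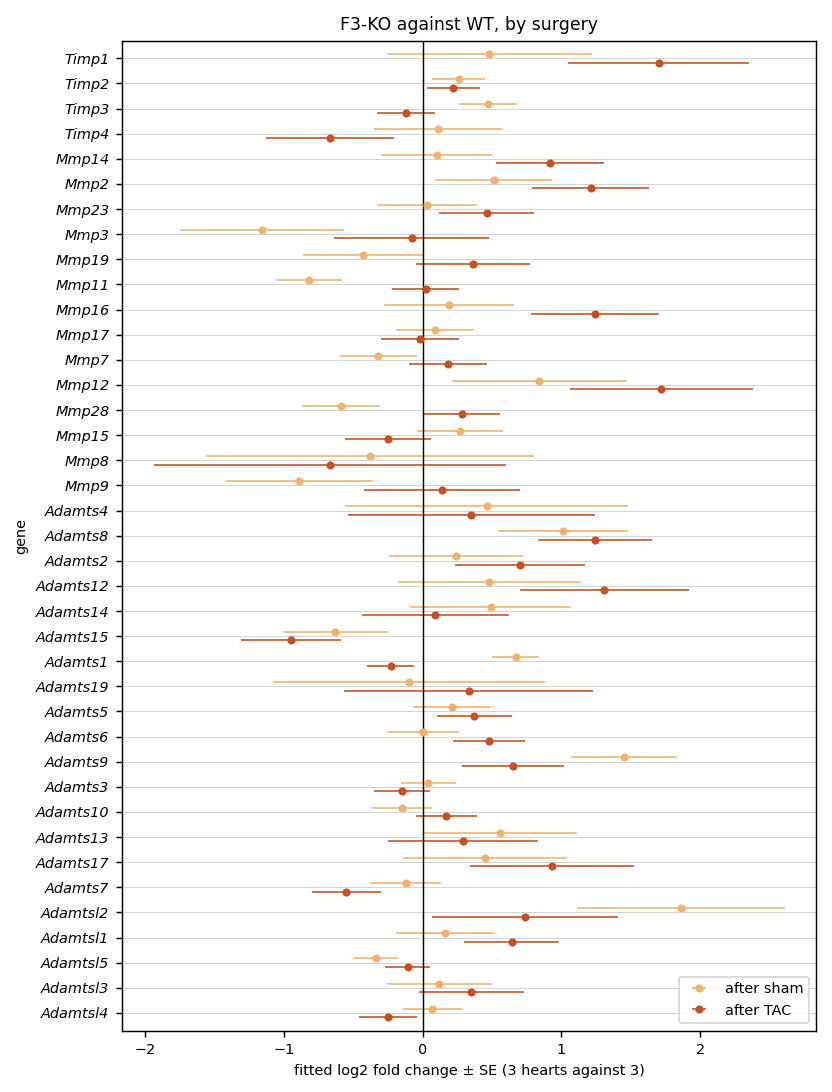
Fitted log2 fold change of F3-KO against WT with its SE for the 39 tested members, after sham (light) and after TAC (dark orange), 3 hearts against 3. Adamtsl2 and Adamts9 are farthest to the right after sham, Timp1 and Mmp12 after TAC, and 0 values passed the adjusted test.

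The genes around the family were described in the same fit. Of 25 matrix substrates, such as the fibrillar collagens, fibronectin, versican and tenascin C, 22 were tested, and 20 were higher and 0 lower after TAC over both genotypes at an unadjusted p of at most 0.05, against 11.3% and 6.52% of all genes. By edgeR 0 (0.078% of genes) and by DESeq2 12 (4.21% of genes) of them were called, and their median log2 fold change was 1.38. Of 24 tested activators, inhibitors and clearance receptors, 8 were higher and 1 lower, 7 were called by DESeq2, and the median was 0.63. The collagen-degrading and elastin-degrading cathepsins *Ctsk* and *Ctss* were among the higher ones, and *Bsg*, which induces metalloproteinases, was the lower one. Of the 10 ADAM proteases, the membrane-bound relatives, 3 were higher and 0 lower, with a median of 0.21, and DESeq2 called 1. After TAC, F3-KO against WT, 6 substrates, 3 regulators and 4 ADAM proteases were higher and 2 regulators lower at an unadjusted p of at most 0.05, against 5.84% and 4.16% of genes. EdgeR called 0 of them (0.078% of genes), and DESeq2 called 1 substrate and 1 ADAM protease (0.636% of genes).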

How the data were processed

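The authors deposited estimated counts per gene for 12 hearts, unscaled. Of the values of all genes 40.6% were not whole, and of the members' values 38.1%, so all were rounded to whole numbers for tests that had been planned for counts. The submitters' processing notes name HISAT2 2.0.4, STAR 2.3.0 and DESeq2; they also name the builds mm8 and mm9, but not which was used for these counts, and the counting tool is not given in the sources used here. The tables of 11 single hearts equalled the joint table, and the one of WT sham 2 broke off early and was not used.

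Tests ran in R 4.3.3 with edgeR 4.0.16 (filterByExpr, minimum count 10; TMM factors 0.931 to 1.09; quasi-likelihood fit of the 4 groups over 12 libraries; 6 contrasts), after a check on simulated data. Adjusted p-values are Benjamini-Hochberg over all 14094 tested genes, with calls below 0.05. CPM values are TMM-scaled, except sums over marker lists, which are scaled by the library total. DESeq2 1.42.0, limma-trend (limma 3.58.1), other scaling and filters, the replicate block, the 6 libraries compared alone and each heart left out were alternatives. Ratios used exact permutation.

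Named genes were all *Timp* genes, *Mmp2*, *Mmp9*, *Mmp14* and members whose TAC and sham hearts did not overlap in a genotype, 21 in all. Others named (among them *Adamts4*, *Adamts9*, *Adamts12*, *Adamts15*, *Mmp3* and *Mmp7*) were chosen after their values were seen, and the ratios and unadjusted counts were added then. Members and lists were chosen with earlier results of these data known. P-values of edgeR set a group difference against the spread between these hearts, estimated from the 4 groups together with information shared across genes. By permutation, 3 against 3 cannot go below 0.1. Transcript lengths are from GENCODE M21 and promoters from RefSeq.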

Additional observations from a re-analysis of the deposited data

Results flagged for a closer look

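*Mmp9* was singled out because the hearts of the 2 surgeries lay on opposite sides of their WT mean. All 3 F3-KO sham hearts (1.66, 1.04 and 0.641 CPM) were below the mean of the WT sham hearts (2.09 CPM), and all 3 F3-KO TAC hearts (0.911, 0.766 and 0.825 CPM) were above the mean of the WT TAC hearts (0.752 CPM). The difference between the genotypes in the TAC effect was 1.03 on the log2 scale (SE 0.77, edgeR adjusted p = 0.954), so it did not pass the test. WT sham 2, at 3.85 CPM, sets the WT sham mean, since the other WT sham hearts had 1.36 and 1.06 CPM, within the range of the F3-KO sham hearts.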

How the results depend on the processing

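The count of called members was 0 in all 6 comparisons by edgeR and stayed 0 by limma-trend and with DESeq2 size factors. DESeq2 called 1 member for TAC against sham in WT, 5 in F3-KO, 10 averaged over genotypes and 2 for F3-KO against WT after sham. For the averaged TAC effect 1 member was called without a filter (*Adamts8*, among 23 genes called), 1 with at least 10 counts in every library (*Adamts1*, among 36) and 2 at an adjusted p under 0.10 (*Adamts1* and *Adamts8*). The 6 libraries compared alone gave 2 calls for F3-KO against WT after sham. The shares of all genes called at 0.10 and in the 6 libraries alone were not counted, so neither count can be set against a background. With unadjusted p-values up to 0.05, the counts were 11 (WT), 13 (F3-KO), 17 (averaged), 8 (genotype after TAC), 5 (genotype after sham) and 2 (difference in the TAC effect). Hearts of the same replicate number correlated between groups at -0.14 to 0.36, highest for WT TAC 3 with F3-KO TAC 3. The main fit did not pair them, and whether the numbers mark a batch cannot be told from these values. With the replicate block there was 1 call in the averaged comparison (*Adamts1*, among 10 genes called) and 0 in the other 5.

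Leaving out single hearts gave 0 to 6 called members for TAC in F3-KO, 0 to 9 averaged, and 0 in the other 4 comparisons; the 6 and the 9 came without F3-KO TAC 3. The unadjusted counts ranged over 5 to 11, 8 to 16, 14 to 19, 2 to 14, 5 to 7 and 1 to 5 in the order above. They were also 6 by limma-trend in WT, 4 in the 6 libraries alone for the genotype after TAC, and 4 by DESeq2 and 4 without a filter for the difference in the TAC effect. The shares of all genes behind these unadjusted counts were not counted for the changed settings. The log2 ratio of *Mmp14* to *Timp2* was 0.63 to 0.96 and that of *Mmp2* to *Timp2* 0.21 to 0.55, the latter with p = 0.025 without WT sham 2 or F3-KO TAC 3 by exact permutation. For single genes the averaged *Timp4* value of -0.01 was 0 with at least 10 counts in every library and -0.33 to 0.17 with a heart left out, and that of *Timp3* was -0.01 to 0.18. No other sign turned among the log2 fold changes recomputed. With 3 hearts a group, these data limit calls to differences well beyond the spread of TAC hearts.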
